A study of Mus musculus with 24 samples.

Results

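Mouse gastrocnemius, the large calf muscle, was sequenced at 5 times after its nerve supply had been removed, and the early state at day 3 is set here against the late state at day 14. The comparison holds 8 of the 24 RNA-seq libraries, chosen by their labels: the 4 named for day 3 and the 4 named for day 14 after denervation. Both groups were denervated, so the contrast asks what changed between an early and a late time without reference to the innervated muscle. The 4 control libraries and the groups at days 1, 5 and 7, each of 4 libraries, stand beside it as levels only. Strain, sex, age, the way the nerve was interrupted, and whether a library came from 1 animal or a pool are not stated in the labels, and no genetic modification or drug is named for any group. The labels do not say that replicates are different animals, and the spread behind each p-value may then be technical only. The extraction text names dorsal root ganglion neurons, whereas the tissue label reads gastrocnemius. Skeletal actin, Acta1, stood at 40820 CPM (counts scaled to a common library size) at day 3 and 17434 CPM at day 14, while 9 of 14 sensory neuron markers, among them Calca, Tac1 and Nefl, were too low to be tested.

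Muscle fibres depend on their nerve for more than contraction. As background, electrical activity keeps the genes of the acetylcholine receptor silent outside the synapse. After denervation the whole fibre takes up embryonic receptor subunits and embryonic myosins, driven in part by myogenic factors such as myogenin, while ubiquitin ligases feed contractile protein to the proteasome and the fibre shrinks. In the nerve stump the axon and its myelin are cleared and Schwann cells turn to a repair state, and in the muscle macrophages, fibroblasts and satellite cells respond.

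Library totals of the 8 libraries ran from 16082839 to 20316569 counts. Levels below are CPM scaled by the trimmed mean of M-values (TMM), and a change is the log2 fold change, day 14 minus day 3, ± SE from edgeR's quasi-likelihood test, which a gene passed at a Benjamini-Hochberg adjusted p below 0.05. Of 14246 genes tested, 77.9% passed: 5494 were higher at day 14 (38.6%) and 5607 lower (39.4%). At least 2-fold changes were seen in 25.9% of genes, 2227 higher (15.6%) and 1459 lower (10.2%). In 71.2% of genes the libraries of the 2 days did not overlap. The first principal component held 84.5% of the variance among the 8 libraries and separated the days. With so many genes passing, a list whose members passed at about these shares does not stand out, and each count below is to be read against them. The split between higher and lower rests on the scaling: with library totals alone, 7802 genes were higher and 3468 lower, and at least 2-fold changes were 3356 higher and 837 lower, the median change over all genes then moving up by 0.34. CPM on library totals sum to a fixed total, and the TMM factors rescale each library further. These levels are thus relative, and in bulk tissue fewer cells of a type and less RNA per cell cannot be told apart. The 20 most abundant genes took 25.2% ± 0.11 (SD, n = 4) of counts at day 3 and 18.2% ± 0.033 at day 14, against 36.8% ± 0.19 in controls.

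The early group did not always lie on a line between its neighbours in time. At day 3, 4.9% of genes were at least 2-fold below both day 1 and day 5 and 2.65% at least 2-fold above both. The shares below and above both neighbours were 1.48% and 4.52% for day 1 (its neighbours being control and day 3), 0.541% and 3.24% for day 5, and 0.183% and 0.632% for day 7. Day 3 thus had the largest share below both, but not above both. It was also the time nearest to control, with 10.5% of genes at least 2-fold from the control mean against 15.7% to 19.2% at the other times. The day 3 libraries are taken as labelled, which nothing in these data checks. These shares use group means with 1 CPM added and were computed after the data were seen. Several of the largest changes from day 3 to day 14 are of this kind, and the levels at the other times are given with them. Lymphocyte markers separate the groups as well: their summed level was 33.4 to 38.0 CPM at day 3 and 43.8 to 46.4 CPM at day 14, but 485.5 to 503.2 CPM at day 1 and 677.4 to 704.2 CPM at day 5. The part of these features in the results was not tested.

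**Figure D1:**
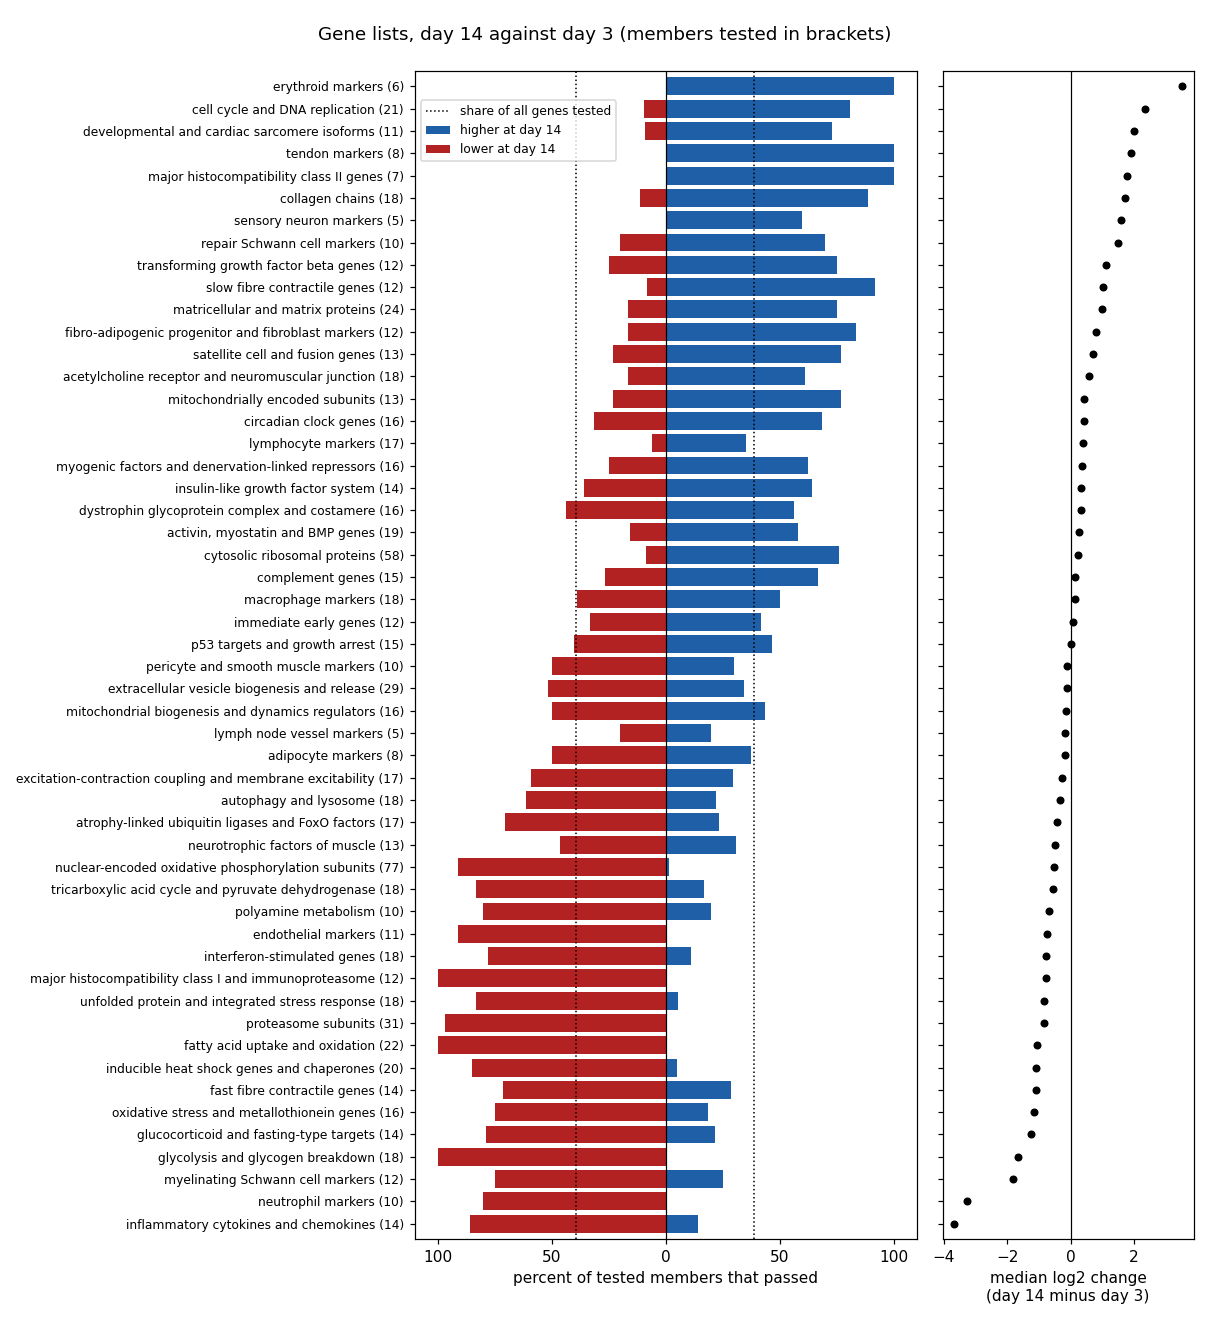
Share of tested members of each of 52 gene lists that passed the test from day 3 to day 14, higher (blue, right) or lower (red, left), with the number tested in brackets, beside the list's median log2 change. Dotted lines mark the shares over all genes tested, 38.6% higher and 39.4% lower. Erythroid markers and cell cycle genes have the highest medians, and cytokines and neutrophil markers the lowest.

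Receptor genes of the neuromuscular junction rose steeply. The embryonic gamma subunit of the acetylcholine receptor, Chrng (1:87204657-87212694 on GRCm38), stood at 0.501, 0.486, 0.7 and 0.566 CPM in the day 3 libraries and at 296, 290, 294 and 283 CPM in the day 14 libraries. It was nearly undetected at day 3 and the libraries were far from overlapping, a change of 9.0 ± 0.081 (adjusted p = 6.3e-53). Chrng was not silent through the early phase, since its mean was 44.4 CPM at day 1, 13.8 CPM at day 5 and 66.5 CPM at day 7, against 0.374 CPM in controls. The delta subunit, Chrnd, measured 7.58, 6.37, 5.73 and 5.53 CPM at day 3 and 486, 479, 474 and 486 CPM at day 14, a change of 6.25 ± 0.045. The alpha subunit, Chrna1 (2:73563215-73580338), measured 42.3, 44.5, 45.5 and 40.0 CPM against 1072, 1087, 1078 and 1060 CPM, a change of 4.64 ± 0.03. Chrnb1, the beta subunit, rose by 2.24 ± 0.039. The adult epsilon subunit, Chrne, did not pass: 5.51, 4.59, 6.68 and 6.16 CPM at day 3 overlapped 5.36, 4.53, 4.87 and 5.14 CPM at day 14 (change -0.20 ± 0.13, adjusted p = 0.16). Without day 3 replicate 2 its change of -0.30 would pass.

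In TPM, which also scales for transcript length, the order of the receptor subunits was different at the 2 days. At day 3 Chrnb1 led with 33.3 ± 2.33 TPM (SD, n = 4), followed by Chrna1 with 15.7 ± 0.88, Chrne with 5.77 ± 0.961, Chrnd with 3.45 ± 0.511 and Chrng with 0.846 ± 0.469. At day 14 Chrna1 led with 499 ± 5.99 TPM, followed by Chrnd with 334 ± 3.9, Chrng with 289 ± 15, Chrnb1 with 200 ± 3.7 and Chrne with 6.35 ± 0.455. Every neighbouring pair in these 2 orders differed by more than the SDs of both. In controls Chrne stood at 11.2 TPM and Chrng at 0.34 TPM.

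Myogenic factors bind E-boxes, and the promoters of 2 subunits with large rises are shown for that reason. The 250 bases before the RefSeq transcription start on GRCm38.p6 are written 5′ to 3′ on the gene's strand. They are chr1:87205561-87205810 (plus strand) for Chrng and chr2:73580339-73580588 (minus strand) for Chrna1. The Chrng span given above, from GENCODE, begins upstream of this RefSeq start, so the printed Chrng bases lie inside that span. Capitals mark the hexamers CAGCTG, which is its own reverse complement, and CACCTG, on either strand, so that CAGGTG counts as CACCTG.
Chrng: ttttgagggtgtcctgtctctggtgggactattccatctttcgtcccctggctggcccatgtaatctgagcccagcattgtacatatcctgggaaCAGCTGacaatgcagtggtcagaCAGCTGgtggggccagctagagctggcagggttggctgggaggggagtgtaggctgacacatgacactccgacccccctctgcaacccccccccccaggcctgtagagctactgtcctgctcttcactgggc
Chrna1: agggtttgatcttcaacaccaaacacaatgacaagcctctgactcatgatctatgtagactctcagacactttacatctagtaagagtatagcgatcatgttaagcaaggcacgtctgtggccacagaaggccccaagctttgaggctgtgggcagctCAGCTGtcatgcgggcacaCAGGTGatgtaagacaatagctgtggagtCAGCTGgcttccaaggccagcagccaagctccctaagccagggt
In the Chrng promoter CAGCTG begins 155 and 132 bases before the RefSeq start, and in that of Chrna1 at 92 and 44, with CAGGTG at 73. Of 18 junction genes, 12 matched a promoter entry, 6 of these held CAGCTG (Chrna1, Chrne, Chrng, Etv5, Musk and Prkar1a) and 3 held CACCTG (Chrna1, Chrnb1 and Prkar1a). Over all 27025 genes with an entry the shares were 14.7% and 19.4%. Chrne and Etv5 hold CAGCTG without having passed the test, and Prkar1a, which holds CAGCTG and CACCTG, fell. A match describes letters, not binding.

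Among the other junction genes, Ncam1, the neural cell adhesion molecule, rose from 7.45, 5.13, 7.19 and 7.48 CPM to 135, 136, 134 and 128 CPM, a change of 4.30 ± 0.06. Lrp4, the agrin receptor, rose by 1.74 ± 0.067. Musk, the receptor kinase that agrin signals through, moved much less, from 68.9 ± 1.82 to 88.6 ± 2.9 CPM (0.36 ± 0.04), having already stood far above the control level of 8.93 CPM at day 3. In all, 11 of 18 rose, 3 fell (Rapsn, Agrn and Prkar1a) and 4 did not pass (Chrne, Colq, Ache and Etv5), with a median change of 0.58. The 3 falls were of 0.28 or less on the log2 scale, and with library totals alone 17 members rose and 0 fell. Agrn no longer passed without day 3 replicate 1 (-0.12), day 3 replicate 2 (-0.12) or day 14 replicates 1, 2 or 4 (-0.11, -0.11 and -0.12), with DESeq2 or its size factors (-0.11 each) or with the 8 libraries alone (-0.09). Etv5 passed without day 14 replicate 1 (-0.19).

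**Figure D2:**
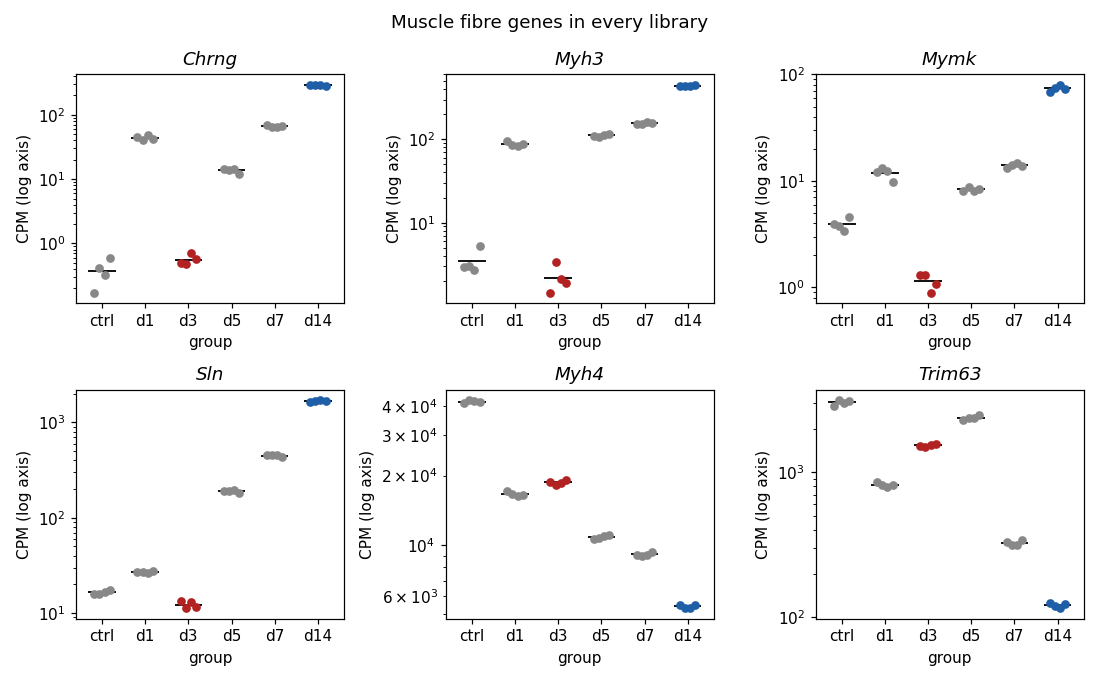
CPM (log axis) of 6 muscle fibre genes in all 24 libraries by group (ctrl, control; d, day after denervation), with day 3 in red, day 14 in blue and a bar at each group mean. Chrng, Myh3, Mymk and Sln are near or below their control level at day 3 and highest at day 14, while Myh4 and Trim63 end below every other group.

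Myogenic regulators were already high at day 3 and rose modestly. Myog, encoding myogenin, measured 130, 124, 137 and 138 CPM at day 3 and 224, 216, 210 and 234 CPM at day 14 (0.74 ± 0.038, adjusted p = 2.3e-22), against 19.8 CPM in controls. Myod1 rose by 0.69 ± 0.034 from a similar level, and its libraries did not overlap either. Runx1, a transcription factor of denervated fibres, showed a wider step, from 32.6, 30.9, 30.6 and 34.0 CPM to 214, 211, 215 and 214 CPM (2.74 ± 0.035). Mef2a and Mef2c, activity-linked partners of the myogenic factors, rose by 2.47 ± 0.03 and 2.17 ± 0.03, whereas Mef2d fell by 1.12. Dach2, a repressor of myogenin, fell by 2.98, from 0.554 to 0.0662 CPM, levels near the detection limit. The deacetylase Hdac4 did not pass, with 153 ± 6.44 CPM at day 3 and 155 ± 3.45 CPM at day 14, both above the control mean of 49.4 CPM, but it passed with library totals alone (0.36). Of 16 genes in this list 10 rose and 4 fell, with a median of 0.34.

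The 2 muscle fusogens showed some of the largest steps of all. Mymx, encoding myomixer, stood at 0.438, 0.162, 0.255 and 0.189 CPM at day 3 and at 61.6, 60.4, 62.7 and 64.2 CPM at day 14, a change of 7.88 ± 0.15. Mymk, encoding myomaker, stood at 1.31, 1.3, 0.891 and 1.07 CPM and then at 68.5, 74.9, 80.4 and 72.5 CPM, a change of 6.0 ± 0.11. Both were low at every earlier time: at day 7 Mymx had a mean of 5.92 CPM, so most of its rise fell between days 7 and 14. Megf10, a receptor of satellite cells, the muscle stem cells, rose by 3.92 ± 0.14, and their transcription factors Pax7 and Myf5 by 0.45 ± 0.12 and 1.11 ± 0.16. Of 13 satellite cell and fusion genes 10 rose and 3 fell (Cdh15, Sdc4 and Itga7), with a median of 0.69.

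Sarcomere genes divided by isoform. Embryonic myosin, Myh3, measured 1.44, 3.35, 2.10 and 1.89 CPM at day 3 and 438, 431, 438 and 454 CPM at day 14, a change of 7.61 ± 0.074 (adjusted p = 9.4e-52). Its mean had been 87.5 CPM at day 1 and 112 CPM at day 5, so day 3 stood low between higher neighbours. Perinatal myosin, Myh8, rose by 5.00 ± 0.086, from 2.36 to 74.7 CPM. The muscle LIM protein gene Csrp3 rose by 4.96 ± 0.036 and cardiac troponin T, Tnnt2, by 3.21 ± 0.14. Cardiac actin, Actc1, went the other way, from 740, 702, 726 and 731 CPM to 68.0, 60.8, 60.5 and 64.5 CPM (change -3.52 ± 0.03), and its control mean was higher still at 4138 CPM. Of 11 developmental and cardiac isoforms 8 rose, Actc1 fell and 2 did not pass (Myh6 and Myh7b), with a median of 2.00.

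Fast contractile genes fell as a group and slow ones rose. Fast myosin-binding protein C, Mybpc2, dropped from 4494, 4406, 4449 and 4579 CPM to 133, 119, 118 and 122 CPM, a change of -5.19 ± 0.023, after 10109 CPM in controls. Myh4, the fastest myosin, fell by 1.79, from 18671 ± 359 to 5411 ± 104 CPM, and Atp2a1, the fast calcium pump, fell by 1.94. Of the fast genes 4 rose: Myh2 (1.32 ± 0.02), Myh1 (0.89 ± 0.019), Myl1 (0.11 ± 0.013) and Casq1 (0.07 ± 0.017). The other 10 of 14 fell, each by at least 2-fold, and the median was -1.11. Of 12 slow genes 11 rose, 7 of them at least 2-fold, and the median was 1.02. Tnnt1, slow troponin T, rose by 1.83 ± 0.04, Tnni1 by 1.53 ± 0.03 and slow myosin, Myh7, by 1.22 ± 0.029. Myl3, the slow light chain, was the exception and fell by 0.47.

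Set against each other per length, the myosin heavy chains changed rank. Myh4 stood at 4971 ± 125 TPM at day 3 and 1834 ± 34.2 TPM at day 14. Myh1 went from 509 ± 16.5 to 1234 ± 25.2 TPM, Myh2 from 238 ± 7.28 to 758 ± 14.8 TPM and Myh7 from 87.8 ± 3.36 to 260 ± 16 TPM. Embryonic Myh3, at 149 ± 3.04 TPM on day 14, came after these 4, and Myh8 followed with 25.0 ± 0.504 TPM. Myh4 was the leading myosin at both days, though its TPM was 9.8 times that of Myh1 at day 3 and 1.5 times at day 14.

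By absolute CPM, the gains were led by Mb, myoglobin, which rose from 1748, 1775, 1740 and 1805 CPM to 8214, 8137, 8204 and 8352 CPM (2.22 ± 0.015). Car3, carbonic anhydrase of slow fibres and fat, rose from 585, 577, 588 and 574 CPM to 7001, 7009, 7145 and 6944 CPM (3.6 ± 0.019). The elongation factor Eef1a1, the LIM protein gene Fhl1, mt-Cytb and Col3a1 completed the 6 largest gains. The 6 largest losses were all of fibre genes: Acta1 (change -1.23), Atp2a1, Myh4, Ckm, Aldoa and Tnnt3. Creatine kinase, Ckm, went from 23770, 22670, 24230 and 24430 CPM to 3044, 2947, 2932 and 2923 CPM, a change of -3.01 ± 0.017.

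A calcium pump regulator, a sarcomere scaffold and a keratin pair were among the 15 largest rises. Sln, encoding sarcolipin, an inhibitor of the calcium pump, measured 13.3, 11.2, 12.9 and 11.5 CPM at day 3 and 1654, 1665, 1714 and 1674 CPM at day 14 (7.10 ± 0.035, adjusted p = 6.7e-63). Its group means climbed without a break over days 3, 5, 7 and 14. Igfn1, a Z-disc associated protein, rose from 7.03 ± 0.644 to 1006 ± 89.9 CPM (7.15 ± 0.072). The paired keratins Krt8 and Krt18 rose by 7.38 ± 0.096 and 6.68 ± 0.053, to 248 and 414 CPM, and both had been high at days 1 and 5, with 105 and 87.6 CPM for Krt8.

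Membrane and costamere genes moved in both directions. Of 17 excitation-contraction coupling genes 10 fell and 5 rose, with a median of -0.29 that turns to 0.05 with library totals alone, where 8 fell and 8 rose. The potassium channel Kcnc1 fell by 2.30, the calcium release channel Ryr1 by 1.31 and the adult sodium channel Scn4a by 1.06, while the calcium channel subunit Cacna2d1 rose by 1.23 ± 0.03. Of 16 genes of the dystrophin complex and costamere 9 rose and 7 fell. Dmd, dystrophin, rose by 1.28 ± 0.04, and the stress-linked repeat protein gene Xirp1 fell by 2.14, from 1038 CPM, above the control mean of 223 CPM, to 235 CPM.

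Most nuclear genes of energy metabolism fell. All 18 glycolysis and glycogen genes tested fell, 16 of them at least 2-fold, with a median of -1.68. Pygm, muscle glycogen phosphorylase, went from 6564, 6396, 6515 and 6650 CPM to 931, 918, 898 and 920 CPM (change -2.83 ± 0.016). Fbp2, fructose bisphosphatase, which works against the glycolytic direction, fell by 4.13, and the enolase gene Eno3 fell by 2.52. All 22 fatty acid genes fell, with a median of -1.06, led by the transporter Slc27a1 (change -2.61 ± 0.05) and the binding protein Fabp3 (change -2.21 ± 0.03). With library totals alone 19 of the 22 fell and 2 rose. Of 18 tricarboxylic acid cycle genes 15 fell, with Idh2 the lowest at -2.07 ± 0.034 and a list median of -0.56. On library totals alone 11 of these fell and 7 rose, with a median of -0.22.

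Respiratory chain genes differed by genome of origin. Of 77 nuclear subunits 70 fell, Ndufs4 rose and 6 did not pass, with a median of -0.54 and only 4 at least 2-fold. Of 13 mitochondrially encoded subunits 10 rose, with a median of 0.43, led by mt-Nd4 (0.79 ± 0.02) and mt-Atp6 (0.77 ± 0.03). The 3 that fell (mt-Nd3, mt-Co1 and mt-Co3) did so by 0.25 or less. With library totals alone mt-Co1 and mt-Co3 rose and mt-Nd3 did not pass (0.09), so that 12 of the 13 rose. On that scaling the nuclear subunits gave 47 lower and 19 higher, with a median of -0.20. The difference between the genomes was not tested as such. Among 16 regulators of mitochondria 7 rose and 8 fell, with a median of -0.16 that turns to 0.18 with library totals alone. The nuclear receptor Esrrg rose by 3.20 ± 0.1 and the coactivator Ppargc1a fell by 1.09, from 24.3 to 11.4 CPM, its control mean being 11.1 CPM.

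Both leading atrophy ligases and the proteasome fell. The ubiquitin ligase MuRF1, Trim63, measured 1531, 1494, 1532 and 1578 CPM at day 3 and 126, 120, 115 and 123 CPM at day 14, a change of -3.66 ± 0.03 (adjusted p = 2.4e-54). Atrogin-1, Fbxo32, went from 911, 906, 878 and 892 CPM to 107, 110, 109 and 113 CPM (change -3.03 ± 0.021). In controls these genes stood at 3033 and 2213 CPM, above both days. The path of Trim63 was uneven, with 786.3 to 854 CPM at day 1 and 2290 to 2495 CPM at day 5. Fbxo31 and Trim54 fell by 2.63 and 2.04, while Nedd4 and Fbxo30 rose by 1.38 ± 0.019 and 1.24 ± 0.07. Of 17 ligases and FoxO factors 12 fell and 4 rose, with a median of -0.43, against 8 and 6 with a median of -0.09 on library totals alone. Of 31 proteasome subunits 30 fell and Psmc6 did not pass, with a median of -0.84. Psmc6 was higher by 0.08 without day 3 replicate 2 and by 0.07 without day 14 replicate 4, and passed there, as it did with DESeq2 or its size factors (0.07 each), the 8 libraries alone (0.09) and library totals alone (0.40). Psmb2 fell by 1.72 and Psmd8 by 1.51, from 833 to 292 CPM, and their control means of 140 and 453 CPM lay between the days. With library totals alone 25 subunits fell and 3 rose.

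Autophagy genes were mixed, with 11 of 18 lower and 4 higher and a median of -0.35. These became 9 and 8, with a median of -0.01, on library totals alone. The cargo receptor Sqstm1 fell by 1.91, from 2962 to 787 CPM, and the lysosomal regulator Tfeb by 1.49, while Map1lc3a rose by 1.01 ± 0.02. Cytosolic ribosomal protein genes rose by small amounts: 44 of 58 were higher and 5 lower, none by 2-fold, with a median of 0.23 (57 higher and 0 lower, with a median of 0.57, on library totals alone) and the largest rise in Rpl3 (0.88 ± 0.021). Eef1a1, the elongation factor named above, rose more, from 2240 ± 20.8 to 6289 ± 39.8 CPM.

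Stress genes were high at day 3 and fell by day 14. The inducible heat shock gene Hspa1b measured 217, 212, 227 and 252 CPM in the day 3 libraries and 10.2, 8.63, 10.3 and 11.9 CPM in the day 14 libraries, a change of -4.47 ± 0.073 (adjusted p = 2e-42). Its neighbour Hspa1a measured 266, 261, 284 and 274 CPM and then 13.0, 13.7, 11.5 and 14.7 CPM (change -4.36 ± 0.061). For Hspa1b the group means were 9.67 CPM in controls, 6.24 at day 1, 8.97 at day 5 and 14.9 at day 7, so that day 3 alone stood high. The 2 genes are near-identical copies, and reads can be divided between them uncertainly. Their promoters show this closeness, and the binding motif of heat shock factors, for which they are printed. The 250 bases before the start, from RefSeq on GRCm38.p6 and on the gene's strand, are chr17:34972157-34972406 (minus strand) for Hspa1a and chr17:34959239-34959488 (minus strand) for Hspa1b. Capitals mark the motif searched, GAANNTTC or TTCNNGAA, each its own reverse complement.
Hspa1a: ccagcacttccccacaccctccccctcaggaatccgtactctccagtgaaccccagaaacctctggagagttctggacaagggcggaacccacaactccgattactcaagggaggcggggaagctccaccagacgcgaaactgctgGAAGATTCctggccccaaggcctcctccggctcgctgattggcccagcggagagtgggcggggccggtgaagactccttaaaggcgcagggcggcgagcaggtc
Hspa1b: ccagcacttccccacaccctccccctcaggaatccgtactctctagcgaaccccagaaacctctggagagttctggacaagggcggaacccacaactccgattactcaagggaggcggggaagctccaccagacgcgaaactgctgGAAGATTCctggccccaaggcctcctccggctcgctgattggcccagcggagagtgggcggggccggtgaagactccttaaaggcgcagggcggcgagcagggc
They are identical at 247 of 250 bases, and each holds the motif once, 104 bases before the start. Of 20 heat shock and chaperone genes 15 matched a promoter entry and 7 of these held the motif, against 14.5% of all 27025 genes with an entry. The 7 are not all separate sequences, since they include this near-identical pair and Hspe1 and Hspd1, whose windows overlap. Dnaja1 holds the motif without having passed the test, and Bag3 fell without holding it.

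Other heat shock genes fell less far. Of the 20, 17 fell, Hspb8 rose (0.36 ± 0.015) and Dnaja1 and Hsf2 did not pass, with a median of -1.11. Dnaja1 passed as higher with the 8 libraries alone (0.10) and with library totals alone (0.41), the latter giving 16 lower and 3 higher in all. The small heat shock protein Hspb1 fell by 2.00, from 1209 to 301 CPM, the co-chaperone Bag3 by 1.79 and Cryab, alpha-B crystallin, by 1.54. At day 3 these 3 had stood above their control means of 339, 299 and 365 CPM, and Cryab was still above it at day 14, with 721 CPM.

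Metallothioneins and oxidative stress genes fell as steeply. Mt1 measured 717, 748, 710 and 720 CPM at day 3 and 24.3, 23.3, 20.5 and 25.6 CPM at day 14 (change -4.95 ± 0.046), below its control mean of 82.0 CPM, and Mt2 fell by 4.81. Srxn1, sulfiredoxin, fell by 3.83 and Hmox1, haem oxygenase, by 2.56. Of 16 genes in the list 12 fell and 3 rose (Gsta4, Gpx1 and Gpx3), with a median of -1.17. Among genes of the unfolded protein response and integrated stress response, 15 of 18 fell and 1 rose, with a median of -0.83, against 14 and 3 with a median of -0.49 on library totals alone. Atf4, its central factor, measured 863, 893, 856 and 839 CPM and then 141, 136, 129 and 133 CPM (change -2.68 ± 0.029), and the day 3 level was above the control mean of 399 CPM. Its targets Chac1 and Trib3 fell by 3.34 and 1.97.

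**Figure D3:**
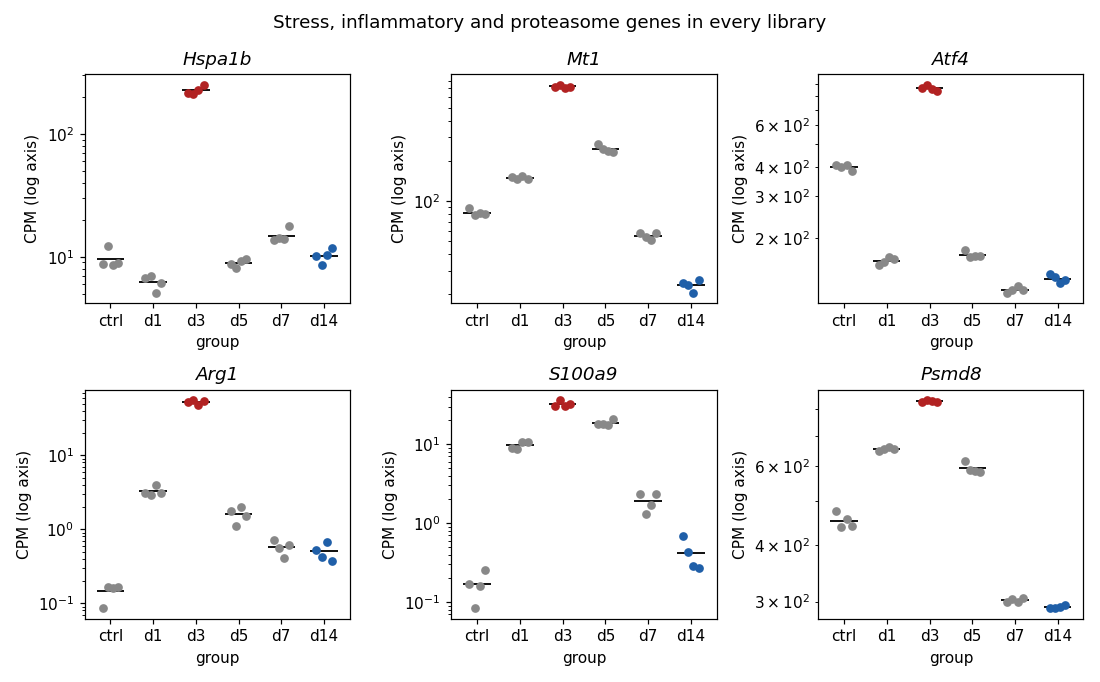
CPM (log axis) of 6 genes in all 24 libraries by group (ctrl, control; d, day after denervation), with day 3 in red, day 14 in blue and a bar at each group mean. Day 3 is the highest group for all 6 genes; Hspa1b and Atf4 are low in the groups on either side of it.

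Growth arrest and growth factor genes included several large single changes. Gadd45a, a growth arrest gene of denervated muscle, rose from 98.2, 104, 97.2 and 96.2 CPM to 559, 568, 574 and 569 CPM (2.52 ± 0.028), after a mean of 707 CPM at day 5. Its relatives Gadd45g and Gadd45b fell by 2.06 and 1.24. The ectodysplasin receptor Eda2r rose by 1.94 ± 0.03 and Cdkn1a, the p21 inhibitor, by 0.45 ± 0.026. The 15 p53 targets gave 7 higher and 6 lower, with a median of -0.01 that changes sign under several settings, and 10 higher and 2 lower on library totals alone.

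Follistatin, Fst, which blocks myostatin and activins, rose from 8.71, 10.5, 9.61 and 8.17 CPM to 46.0, 50.5, 46.6 and 48.1 CPM (2.37 ± 0.072). Myostatin, Mstn, fell from 30.6, 30.7, 30.6 and 30.2 CPM to 8.38, 9.66, 8.64 and 8.60 CPM (change -1.79 ± 0.07). The libraries of the 2 days did not overlap for either gene. Gdf5, a bone morphogenetic protein of denervated muscle, fell by 0.80, from 14.9 to 8.54 CPM, and stood far above its control mean of 0.294 CPM at both days. Of 19 genes of this family 11 rose and 3 fell, with a median of 0.26.

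Igf1 rose from 22.9, 22.8, 24.4 and 19.3 CPM to 101, 96.6, 103 and 91.7 CPM (2.13 ± 0.053). The binding proteins Igfbp2 and Igfbp5 rose by 4.91 ± 0.28 and 2.28 ± 0.02, the latter to 1842 CPM, while the insulin receptor substrates Irs2 and Irs1 fell by 2.70 and 1.25. Of 14 tested genes of the insulin-like growth factor system 9 rose and 5 fell. Of 10 polyamine genes 8 fell and 2 rose, against 6 and 4 on library totals alone. Arg2, a mitochondrial arginase, had 113 counts over the day 3 libraries and 0 over the day 14 libraries, at least 45.2-fold lower with a floor of 3 counts over the group. Smox, spermine oxidase, fell by 1.94.

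Factors that act on nerves moved without a common direction: 4 of 13 rose, 6 fell and 3 did not pass, Ntf3 and Gdnf among them. On library totals alone 6 rose and 5 fell, Gdnf (0.59) and Ntf3 (0.78) passing as higher. Bdnf rose by 2.49 ± 0.43 but only to 1.22 CPM, and the neurturin gene Nrtn fell by 2.65, to 0.427 CPM. Gdnf stood at 5.95 ± 0.739 and 7.08 ± 0.606 CPM, above the control mean of 0.481 CPM, and passed without day 3 replicate 2 (0.31) or day 14 replicate 3 (0.30), and with the 8 libraries alone (0.28). Ntf3 passed without day 3 replicate 1 (0.54) or day 14 replicate 3 (0.56). Vesicle genes were of interest because the series' title concerns extracellular vesicles of denervated muscle. Of 29 genes of vesicle formation and release 15 fell and 10 rose, with a median of -0.11 that turns to 0.23 with library totals alone, where 12 fell and 15 rose. The sorting protein gene Hgs fell from 226, 220, 226 and 221 CPM to 59.1, 59.4, 56.8 and 60.3 CPM (change -1.92 ± 0.034). Cd63, a tetraspanin of exosomes, fell from 392, 397, 402 and 404 CPM to 221, 221, 217 and 223 CPM (change -0.86 ± 0.024), with both days above its control mean of 142 CPM. Rab27b, which docks vesicles for release, rose by 3.53 ± 0.41 to 2.68 CPM, and Rab27a fell by 0.45 on the main scaling but did not pass with library totals alone.

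Several inflammatory genes of innate immune cells fell steeply. Chil3, a secreted protein of monocytes and macrophages, measured 114, 116, 114 and 110 CPM at day 3 and 0.795, 0.0943, 0.145 and 0.108 CPM at day 14 (change -8.64 ± 0.16, adjusted p = 9.1e-40). Arg1, arginase of activated macrophages, fell from 52.4, 55.7, 47.7 and 53.4 CPM to 0.53, 0.424, 0.675 and 0.379 CPM (change -6.68 ± 0.14). Both were low in controls and peaked at day 3, with 9.03 and 3.26 CPM at day 1 and 8.75 and 1.58 CPM at day 5. The macrophage list as a whole did not follow them. Of 18 markers 9 rose and 7 fell, with a median of 0.12, and the summed level was 1428 to 1477 CPM at day 3 and 1343 to 1383 CPM at day 14, against 779.7 to 791.2 CPM in controls. The resident marker Mrc1 rose by 0.68 ± 0.039 and the complement chain C1qa by 0.45 ± 0.035, whereas Itgam, Fcgr1 and Cd68 fell by 2.13, 2.22 and 1.25. The monocyte antigen Ly6c2 fell by 6.08, although it shares sequence with its neighbours in the Ly6 family.

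Neutrophil markers fell in 8 of 10 tested, and none rose, with a median of -3.28, or -3.15 with Elane, which had 0 counts at day 14, taken at its bound. S100a9, a calprotectin subunit, measured 30.7, 36.2, 30.6 and 32.5 CPM and then 0.689, 0.424, 0.289 and 0.271 CPM (change -6.26 ± 0.16). Its partner S100a8 fell by only 0.91, from 19.4 to 10.3 CPM. The chemokine receptor Cxcr2 fell by 6.83 and the granule protein Lcn2 by 6.75, from 181 ± 2.97 to 1.67 ± 0.181 CPM. The summed marker level was 90.9 to 103.3 CPM at day 3 and 13.3 to 15.7 CPM at day 14, against 2.1 to 2.97 CPM in controls, with S100a8 the larger part of the latter.

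Of 14 cytokine and chemokine genes 12 fell, with a median of -3.69. Il1b fell from 14.5, 12.5, 13.2 and 13.4 CPM to 0.265, 0.0943, 0.289 and 0.162 CPM (change -6.01 ± 0.25). Cxcl5, which attracts neutrophils, fell by 6.01 and Ccl2, which attracts monocytes, by 4.34, from 33.6 to 1.65 CPM. The chemokine Ccl8 rose by 1.84 ± 0.081, and Cxcl12 by 0.14 ± 0.025. Other inflammation-linked genes among the largest falls were Saa3, an acute-phase protein (change -5.95 ± 0.18), and Slfn4 (change -5.48 ± 0.21).

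Antigen presentation genes split by class. All 7 class II genes rose, 6 of them at least 2-fold, with a median of 1.77. Cd74, the invariant chain, measured 113, 120, 109 and 118 CPM at day 3 and 443, 452, 457 and 455 CPM at day 14 (1.97 ± 0.029), and H2-Aa rose by 2.15 ± 0.033. The day 3 levels lay below the control means of 149 and 87.2 CPM. The summed class II level was 268.3 to 276.8 CPM at day 3 and 1055 to 1074 CPM at day 14. It had been 959.3 to 975.4 CPM at day 1 and 1150 to 1190 CPM at day 5, so day 3 stood low between higher neighbours. At day 7 it was 574.2 to 591.1 CPM. All 12 class I and immunoproteasome genes fell, with a median of -0.80. H2-Q7 fell by 1.69, though the Q genes are near-identical copies, and Tap1, the peptide transporter, by 1.17. With library totals alone 9 of the 12 fell and 1 rose. Of 18 interferon-stimulated genes 14 fell, with a median of -0.79, led by Irf7 (change -2.40 ± 0.046) and Oas1a (change -2.04 ± 0.1). Of 15 complement genes 10 rose and 4 fell.

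Lymphocyte genes were near their control level at both days, and 10 of 17 did not pass. The T cell receptor chain genes Cd3d, Cd3e and Cd3g were among those 10. Ighm, the IgM heavy chain, rose by 1.10 ± 0.056, from 17.3 to 37.1 CPM. The antibody heavy chain gene Ighg2c rose from 0, 0.162, 0.191 and 0.44 CPM to 29.9, 26.0, 27.4 and 28.8 CPM (7.10 ± 0.22), and reads can be shared with other heavy chain genes.

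Matrix genes rose broadly. Of 18 collagen chains 16 rose, 14 at least 2-fold, with a median of 1.70, and the 2 basement membrane chains Col4a1 and Col4a2 fell by 0.16 or less and were higher with library totals alone. Col1a1 measured 542, 544, 546 and 567 CPM at day 3 and 2643, 2664, 2629 and 2720 CPM at day 14 (2.28 ± 0.02). Col3a1 measured 714, 683, 745 and 738 CPM and then 3828, 3803, 3788 and 3937 CPM (2.41 ± 0.022). For both, day 3 was the lowest of the 6 groups, below control means of 1314 and 2395 CPM. Col19a1 and Col25a1 rose by 4.49 ± 0.13 and 4.09 ± 0.22, to 21.6 and 8.07 CPM.

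Periostin, Postn, made the widest step among matrix proteins, from 15, 11.8, 31.1 and 29.8 CPM to 595, 592, 587 and 578 CPM (4.77 ± 0.28). Its day 3 libraries fell into a lower and a higher pair, and the control libraries varied as widely, at 142 ± 116 CPM. Asporin, Aspn, rose by 3.28 ± 0.07 and biglycan, Bgn, by 2.05 ± 0.02, while Mmp9, Thbs1, Timp1 and Mmp3 fell. In all, 18 of 24 matrix proteins rose, with a median of 0.99. The ligands Tgfb1, Tgfb2 and Tgfb3 rose by 1.36 ± 0.052, 1.48 ± 0.08 and 1.44 ± 0.03, and 9 of 12 genes of that pathway rose. All 8 tendon markers rose, with a median of 1.91, among them tenomodulin, Tnmd, from 8.67 ± 0.65 to 107 ± 3.26 CPM (3.62 ± 0.059). Of 12 fibroblast and progenitor markers 10 rose, but their summed level was alike, 4455 to 4626 CPM at day 3 and 4561 to 4636 CPM at day 14, as abundant Gsn fell by 0.54.

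**Figure D4:**
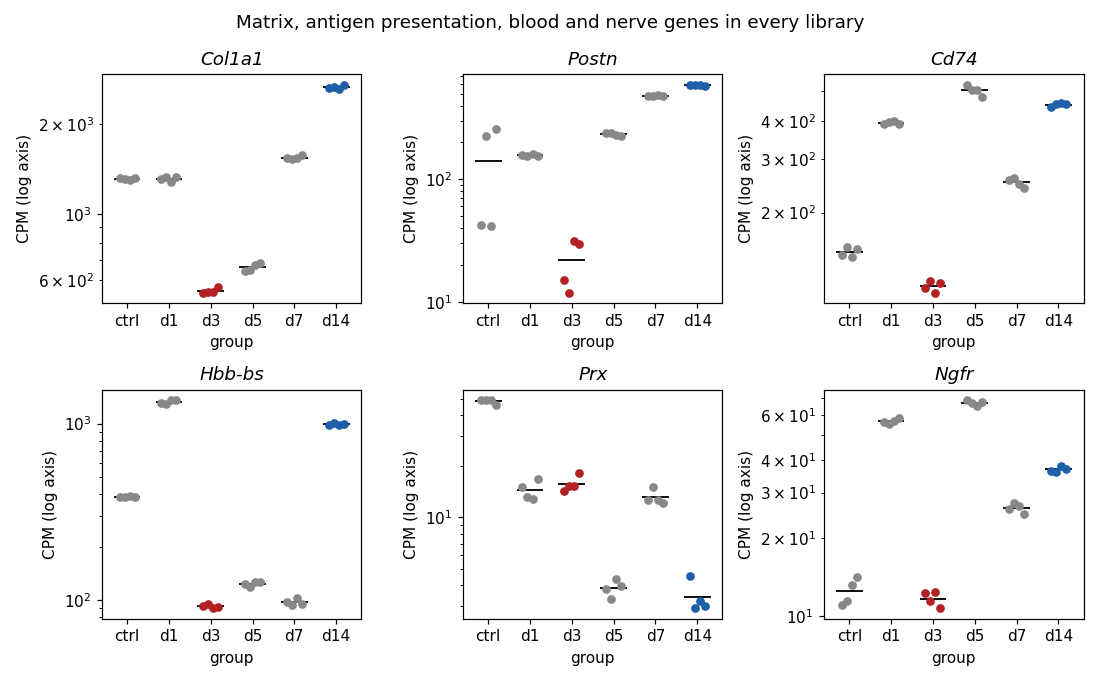
CPM (log axis) of 6 genes of matrix, antigen presentation, blood and nerve in all 24 libraries by group (ctrl, control; d, day after denervation), with day 3 in red, day 14 in blue and a bar at each group mean. Col1a1, Postn, Cd74 and Hbb-bs have their lowest group mean at day 3; Prx has its lowest mean at day 14, where its libraries overlap those of day 5.

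Most myelin genes fell, and most genes of repair Schwann cells rose. Prx, encoding periaxin, a protein of myelinating Schwann cells, fell from 14.3, 15.3, 15.3 and 18.2 CPM to 4.51, 2.92, 3.23 and 3.03 CPM (change -2.21 ± 0.12), after 48.2 CPM in controls. Its path was uneven, with 3.86 CPM at day 5 and 13.1 CPM at day 7, and the amount of nerve in the sampled tissue was not measured. Mbp and Ncmap, also of the myelin sheath, fell by 2.00 and 4.12. Of 12 myelinating Schwann cell markers 9 fell and 3 rose, Egr2 and Gldn among them, with a median of -1.83 and a summed level that went from 252.2 to 257.3 CPM at day 3 to 119.5 to 131.5 CPM at day 14. Of 10 repair Schwann cell markers 7 rose and 2 fell (Shh and Gfra1), both at least 2-fold, with a median of 1.5. Their summed level was 50.2 to 53.1 CPM at day 3 and 75.8 to 80.5 CPM at day 14. It had been 136 to 150.2 CPM at day 1 and 141.4 to 150.7 CPM at day 5, with 55.65 to 58.32 CPM in controls. Ngfr, the low-affinity neurotrophin receptor, measured 12.2, 11.4, 12.3 and 10.7 CPM and then 36.5, 36.2, 38.2 and 37.2 CPM (1.67 ± 0.061). Olig1 had 0 counts in the day 3 libraries and 4.51, 3.68, 4.58 and 3.19 CPM at day 14, at least 88.1-fold higher with a floor of 3 counts over the group. The general Schwann cell factor Sox10 did not pass, at 6.50 ± 1 and 7.59 ± 0.929 CPM, but passed without day 3 replicate 2 (0.33) or day 14 replicate 2 (0.28) and with library totals alone (0.56).

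The 5 sensory neuron markers that could be tested summed to 8.8 to 10.2 CPM at day 3 and 84.2 to 86.8 CPM at day 14 with the untested ones included, and Uchl1 gave 77.7 CPM of the latter (3.59 ± 0.08). Calca, Tac1 and the neurofilament genes stayed below the filter. Among the largest rises were further genes known from the nervous system. Robo2, a guidance receptor, rose from 0.438, 0.162, 0.191 and 0.189 CPM to 39.5, 39.7, 37.8 and 36.7 CPM (7.27 ± 0.19). Cntn2, an axonal adhesion protein, rose by 7.81 ± 0.32 to 15.2 CPM and the synaptic scaffold gene Dlg2 by 6.77 ± 0.22 to 20.6 CPM. For Robo2 and Cntn2 the mean at day 7 was still 2.34 and 1.21 CPM.

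Blood and vessel genes diverged. All 6 erythroid markers rose, with a median of 3.51 and a summed level that went from 187.3 to 192.9 CPM at day 3 to 2154 to 2204 CPM at day 14. The beta-globin gene Hbb-bs stood at 91.9 ± 2.34 and 991 ± 14.2 CPM, with 386 CPM in controls and 1330 CPM at day 1, and globin genes are near-identical copies. Of 11 endothelial markers 10 fell and Emcn did not pass, with a median of -0.74 (8 lower and 2 higher, with a median of -0.40, on library totals alone), and Cldn5, a tight junction protein, fell by 1.42. The share of blood in the tissue was not tested as a part of the other results. Pericyte markers had a median of -0.11 and adipocyte markers of -0.19, each of which turns positive with library totals alone. Pericyte markers went from 3 higher and 5 lower to 6 and 1 there, and adipocyte markers from 3 and 4 to 4 and 2. The 3 higher adipocyte markers were Adipoq, Lep and Car3. The summed adipocyte marker level went from 1320 to 1361 CPM at day 3 to 7528 to 7720 CPM at day 14. Car3, also of slow fibres, made up most of the latter.

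Most proliferation genes rose from day 3 to day 14, though their summed level had been higher at days 1, 5 and 7. Of 21 cell cycle genes 17 rose, 12 at least 2-fold, with a median of 2.34. The summed level was 80.9 to 97.06 CPM in controls, 120.6 to 130.8 CPM at day 3 and 193.4 to 204.6 CPM at day 14. It was 290.5 to 306.3 CPM at day 1, 210.1 to 216.6 CPM at day 5 and 304.5 to 323.6 CPM at day 7. Cyclin A2, Ccna2, stood at 0.0626, 0.108, 0.446 and 0.126 CPM and then at 3.6, 5.23, 3.91 and 3.95 CPM (4.47 ± 0.29), and Mki67 rose by 4.12 ± 0.29 to 6.16 CPM. Aurka and Pcna fell, the latter by 0.19 and not with library totals alone.

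Clock and hormone-linked genes also changed. The clock output gene Dbp rose from 16.4, 17.9, 16.9 and 14.7 CPM to 153, 154, 155 and 153 CPM (3.22 ± 0.059), and Per2 and Per3 rose by 2.42 ± 0.07 and 2.23 ± 0.08. Bmal1, which runs in antiphase to them, fell from 105, 92.7, 91.2 and 92.5 CPM to 15.4, 15.4, 12.9 and 15.3 CPM (change -2.69 ± 0.062). In all, 11 of 16 clock genes rose and 5 fell. The labels give no hour of collection, and its part in these or other results was not tested. Of 14 genes that respond to glucocorticoids or fasting 11 fell, with a median of -1.26, among them Fkbp5 (change -2.59 ± 0.042) and Tsc22d3 (change -1.84 ± 0.02), and Pdk4 rose by 0.72 ± 0.022. Immediate early genes were mixed, 5 of 12 higher and 4 lower, or 7 and 3 on library totals alone: Egr3 rose by 3.12 ± 0.13 and Nr4a1 fell by 2.87.

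Some of the largest falls ended at the detection limit. Chrna2, a neuronal receptor subunit, had a mean of 8.0 CPM and then 1 count, a ratio of 633.4 with a 95% counting interval of 113.2 to 25060. Chrna2 was at 10.4 CPM in controls and 0.259 CPM at day 1, so that day 3 stood above day 1. The connexin gene Gjb1 had a mean of 10.3 CPM and then 3 counts, a ratio of 270.3 with an interval of 92.1 to 1314. Cimap1d fell by 6.59, from 9.22 to 0.0907 CPM. The carrier gene Slc25a25 fell by 5.19 without reaching that limit, from 357 ± 10 to 9.80 ± 0.959 CPM. On the rising side, the growth factor gene Epgn had 3 counts over the day 3 libraries and a mean of 5.79 CPM at day 14, a ratio of 127.8 with an interval of 43.5 to 622.1, and the secreted protein gene Bpifb1 went from 0.117 to 38.5 CPM (8.23 ± 0.18).

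Where the control level lies tells whether a change led away from innervated muscle or across it. Of the 5494 genes that rose, the control mean lay between the days for 53%, below both for 28.6% and above both for 18.4%. For rises of at least 2-fold these shares were 73.2%, 19.3% and 7.5%. Col1a1 went from below control to above it. The means of Myh3 did so as well, but its day 3 and control libraries overlapped. Of the 5607 that fell, 41.3% had a control mean between the days, 26.2% below both and 32.5% above both. For falls of at least 2-fold they were 52.2%, 19.7% and 28.1%. Mt1 and Atf4 went from above control to below it, while Mybpc2, Ckm and Trim63 were below control at day 3 and lower still at day 14. These places rest on the scaling. With library totals alone the control mean lay below both days for most genes of either direction: 59.6% of rises (35.9% between, 4.58% above both) and 59.7% of falls (25.2% between, 15.1% above both). For changes of at least 2-fold it still lay most often between the days, for 56.9% of rises and 41% of falls, with 41.2% and 38.1% below both.

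**Figure D5:**
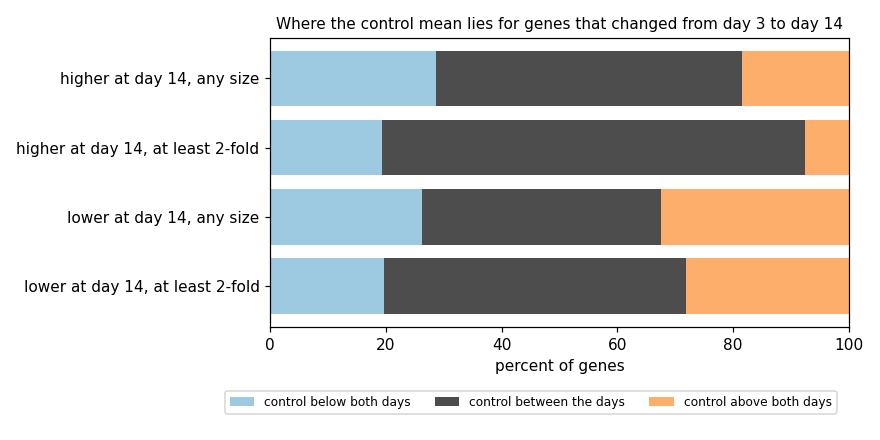
Percent of genes that passed from day 3 to day 14, higher or lower and of any size or at least 2-fold, by whether the control mean lay below both days (light blue), between them (dark grey) or above both (orange). On this TMM scaling the dark part is the longest in all 4 bars, from 41.3% to 73.2%; with library totals alone the part below both is the longest for changes of any size.

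Few genes took a straight path. The group means of days 3, 5, 7 and 14 increased at each step for 1387 of the 5494 genes that rose (25.2%) and decreased at each step for 1183 of the 5607 that fell (21.1%). Over all genes tested the shares were 9.95% and 8.45%. A gene that moves one way at each step must end higher or lower at day 14. The excess over all genes is thus built in and says nothing about straighter paths. On library totals alone fewer genes fell, 3468, and 710 of these decreased at each step. With TMM scaling, 39.7% of rises of at least 2-fold and 36.4% of such falls went one way at each step. Sln, Chrng, Chrna1, Myh3, Mymx, Postn and Runx1 increased at each step, and Ckm, Myh4, Mybpc2 and Pygm were among those with day 14 as their lowest group.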

How the data were processed

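RNA was sequenced from 24 gastrocnemius libraries in 6 groups of 4. The deposited table gives, for each library, expected counts, of which 7.01% are not whole, and TPM, per the file headers; how the authors made the expected counts and TPM (aligner, counter, build, strand) was not stated by labels or header. Of 21965 gene IDs, 21806 matched GENCODE M21, from which GRCm38 positions were taken. Expected counts were rounded and fitted with edgeR 4.0.16 (R 4.3.3): TMM scaling, filterByExpr, 1 coefficient per group over all 24 libraries, quasi-likelihood test of day 14 against day 3, two-sided, Benjamini-Hochberg threshold 0.05. The fit was also run on simulated counts in which few genes changed between the days. That run does not cover a contrast in which most genes passed. Totals of 16082839 to 20696876 counts set the precision, and the counting intervals (95%) and floors (3 counts over a group) cover counting error only. The kit named in the labels does not mark strand, so overlapping genes cannot be separated. DESeq2 1.42.0, other scalings, filters, a replicate block, the 8 libraries alone and left-out libraries were alternatives. Named were the 15 largest changes each way, up to 4 members per list, set key genes and the 6 largest CPM gains and losses. Further members were named after their values were seen, as exceptions of a list or for their role. The members and lists were chosen with earlier results of these data known. Some genes are not reported here.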

Additional observations from a re-analysis of the deposited data

Results flagged for a closer look

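Each result below comes from a group of 4 libraries in which 1 library stood far from the other 3, by Dixon's ratio of that gap to the group's range at its 95% critical value. Of 426 groups examined, 25 did so, against a chance rate of about 1 in 20. At day 3, replicate 2 stood apart for Acta1 (39760 CPM, the others 41110 to 41210), mt-Cytb (4627, the others 4294 to 4348), mt-Nd3 (1500, the others 1092 to 1112), Ncam1 (5.13, the others 7.19 to 7.48), Ndufs4 (123, the others 109 to 111) and Tfeb (85.4, the others 94.9 to 96.5). Replicate 1 of that day did so for Bmal1 (105), Myh6 (8.02, the others 1.46 to 1.66), Psmb2 (282), Rab27a (5.7) and Robo2 (0.438). Replicate 3 did so for Ccna2 (0.446) and Mef2c (83.8), and replicate 4 for Col1a1 (567), Epgn (0) and Nrtn (3.77).

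At day 14, replicate 1 stood apart for Chil3 (0.795 CPM, the others 0.0943 to 0.145), Chrna2 (0.053, the others 0) and Ighm (34.9). Replicate 2 did so for Gadd45b (6.32), S100a8 (11.5) and Tgfb3 (171), replicate 3 for Bmal1 (12.9) and Chac1 (2.22), and replicate 4 for Cxcr2 (0). Leaving the odd library out changed the call of none of these genes by edgeR's quasi-likelihood test. For Myh6, which did not pass, it turned the change from -0.51 to 0.48.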

How the results depend on the processing

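Relative levels of RNA cannot tell a fall in one gene from a rise in others, and the effect of depth was not varied. On library totals alone 3468 genes were lower, and the control mean lay between the days for 25.2% of them. Of these 3468 genes, 710 went down at each step from day 3. At least 2-fold changes were then 3356 higher and 837 lower, and the control lay below both days for 59.6% of rises and 59.7% of falls. The counts of all genes changed, of genes higher and of genes changed at least 2-fold in either direction stayed within 1.5 times in the settings run. Without 1 replicate 10872 to 10957 genes changed, against 11057 with DESeq2 and 10792 with the 8 libraries alone. On library totals alone these list medians changed sign: excitation-contraction coupling 0.0528, mitochondrial regulators 0.183, p53 targets 0.334, vesicle genes 0.231, lymph node vessel 0.0504, pericyte 0.233 and adipocyte markers 0.150. So did Rapsn (0.147), Prkar1a (0.0615), Agrn (0.216), Pcna (0.152), Col4a1 (0.193), Col4a2 (0.183), mt-Co1 (0.108), mt-Co3 (0.209) and mt-Nd3 (0.093). The p53 median was 0.0054 with DESeq2 or its size factors, 0.0265 with the 8 libraries alone, and -0.0262 to 0.0096 with 1 replicate left out, turning without day 3 replicate 3 (0.0046), day 14 replicate 3 (0.0011) or day 14 replicate 4. The lymph node vessel median was 0.329 with the 8 libraries alone, and -0.515 to 0.163 with 1 replicate left out, turning without day 3 replicate 4, day 14 replicate 1 (0.0178) or day 14 replicate 4 (0.0664). The immediate early median turned without day 3 replicate 2 (-0.0223), day 3 replicate 3 (-0.0214) or day 14 replicate 4 (-0.0416), and reached 0.176 without day 3 replicate 4. The causes were not tested. Same-numbered libraries of the 2 days did not deviate together (correlations -0.019 to 0.0539), and not every library correlated best with its own number. A fit with replicate number as a block gave 11077 genes changed and altered no call of a named gene.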
